A study of Mus musculus with 4 samples.

Results

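The family of miR-10, miR-99, miR-100 and miR-125 was measured in bronchoalveolar stem cells (BASCs) of the mouse lung, with and without depletion of the transcription factor c-Myc. Every mouse assay named miR-10a, miR-10b, miR-99a, miR-99b, miR-100, miR-125a or miR-125b was taken, with either arm of the hairpin and without the assays whose name ends in a star. This gave 9 of the 517 mouse miRNAs on the TaqMan low density arrays. They were mmu-miR-10a, mmu-miR-10b, mmu-miR-99a, mmu-miR-99b, mmu-miR-100, mmu-miR-125a-5p and mmu-miR-125b-5p, which are the main (guide) strands, and mmu-miR-125a-3p and mmu-miR-125b-3p, which come from the opposite arm. The rule used the names of the assays and no measured value.

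The study asked which miRNAs depend on c-Myc in BASCs. Lungs of ICR mice aged 4 to 6 weeks were the source of the cells, which were sorted as CD31neg, CD45neg, CD34pos and Sca1pos, and plated on irradiated mouse embryonic fibroblasts, a feeder layer. The paper describes later passages both on such feeders and on collagen, and does not say which culture gave the RNA used here. There were 2 control samples and 2 c-Myc depleted samples. The depleted cells carried a lentiviral shRNA against c-Myc and were stable lines selected with puromycin, and the controls are labelled only as control (the paper used a negative control vector and also speaks of wild type). Which shRNA each depleted sample carried is not given in the sources used here, nor whether the replicates were separate cultures, so the p-values measure only the spread between these samples. The cards hold no c-Myc assay, and the depletion itself was not checked here.

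A miRNA is a short RNA that guides a silencing complex to mRNAs, chiefly through its seed, the bases 2 to 8 from its 5′ end. The miR-10 genes lie within the Hox gene clusters, which set position along the body axis, while the miR-99, miR-100 and miR-125 genes lie in 3 related clusters, each with a let-7 gene. miR-125b is known for slowing differentiation in several stem cell types and for targeting the p53 pathway, and miR-99 and miR-100 for targeting mTOR and the IGF1 receptor.

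The 7 guide strands are printed because their seeds set the subgroups used throughout. The sequences are those of RefSeq (assembly GRCm38.p6), 5′ to 3′, with the seed in capitals.
mmu-miR-10a: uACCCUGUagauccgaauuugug
mmu-miR-10b: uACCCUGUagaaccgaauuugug
mmu-miR-99a: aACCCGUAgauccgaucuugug
mmu-miR-100: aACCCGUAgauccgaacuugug
mmu-miR-99b: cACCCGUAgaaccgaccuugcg
mmu-miR-125a-5p: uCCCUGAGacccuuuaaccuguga
mmu-miR-125b-5p: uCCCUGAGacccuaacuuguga

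The sequences fell into 3 seed groups. miR-10a and miR-10b share ACCCUGU and differ by the single substitution U12A, counted from 1 at the 5′ end with the base of miR-10a first. miR-99a, miR-100 and miR-99b share ACCCGUA, and miR-100 differs from miR-99a by U16A alone, while miR-99b differs from miR-99a by A1C, U11A, U16C and U21C. miR-125a-5p and miR-125b-5p share CCCUGAG and their first 13 bases. Cross-reaction between assays that differ by 1 base was not tested. RefSeq lists different opposite arms for the miR-125b genes, and none is printed for miR-125b-3p.

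On GRCm38.p6 the guide strands all lie on the + strand. miR-10a lies at chr11:96317186-96317208, within the bounds of Hoxb3, and miR-10b at chr2:74726074-74726096, within the bounds of Hoxd3 and Hoxd4. The first mixed cluster holds miR-100 at chr9:41531437-41531458, then let-7a-2, then miR-125b-1 at chr9:41581940-41581961, all within the long non-coding gene Mir100hg. The next holds miR-99a at chr16:77598940-77598961, let-7c-1 and miR-125b-2 at chr16:77646279-77646300, outside the bounds of every other gene in the annotation table used here. The long non-coding gene Mir99ahg, named as the host of this cluster, lies on the same chromosome, and its listed bounds end before miR-99a. The last is the most compact and lies within Spaca6, with miR-99b at chr17:17830194-17830215, let-7e, and miR-125a-5p at chr17:17830817-17830840. Between the hairpins of Mir99b and Mirlet7e there are 94 bases, and 367 between Mirlet7e and Mir125a. In the other clusters the miR-125b hairpin is distant, at 45114 bases from Mirlet7a-2 and 46522 bases from Mirlet7c-1. The mature miR-125b-5p is the same from both of its genes, and their shares cannot be told apart.

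Levels are threshold cycles (CT), the PCR cycle at which a product is first seen, so that a CT lower by 1 cycle corresponds to a doubling of template at full efficiency. Each array set had 2 cards of 384 wells, and all 9 members lay on card A with 1 well each. ΔCT is the CT of a miRNA after subtraction of the U6 level, taken as the average of the 4 wells of this small nuclear RNA on the same card, and the log2 change is the control ΔCT minus the depleted ΔCT, positive where the level was higher after depletion. On card A the U6 CT was 18.9 and 19.1 in control cells against 18.9 and 18.8 in depleted cells, a mean shift of 0.15 cycles, which is subtracted from every member's change. The decimal part of the CT was 0.9 or more in 604 of the 1366 CT values (44.2%) and in 18 of 36 values of the family (50%). The sources used here give no reason for this, and its part in the results was not tested.

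**Figure D1:**
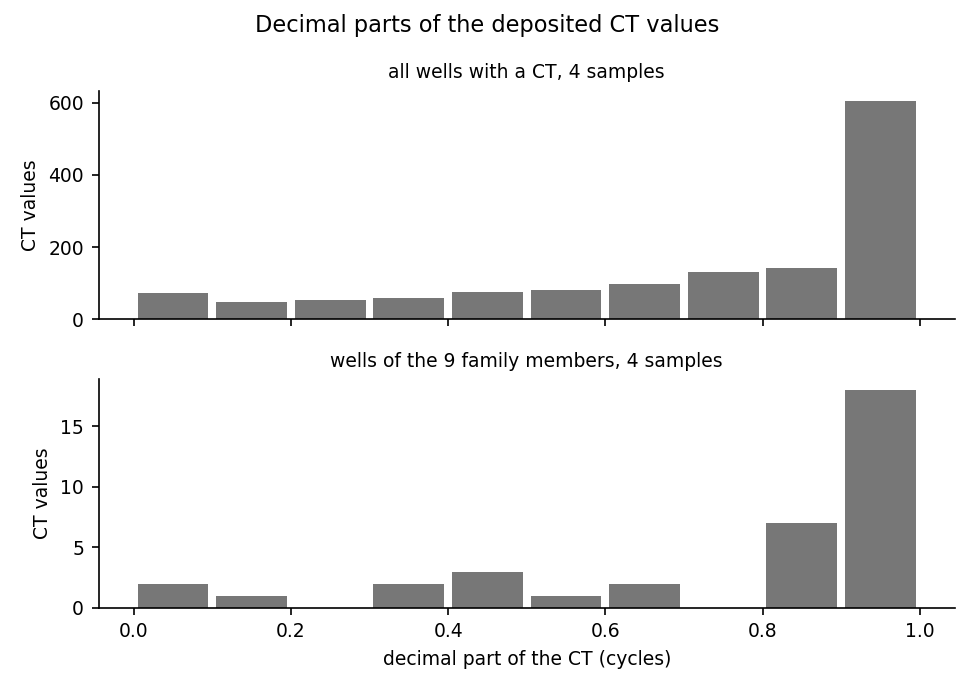
Number of CT values (vertical axis) by the decimal part of the CT in cycles (horizontal axis, bins of 0.1), for all wells with a CT in the 4 samples (upper panel) and for the 9 family members (lower panel). The last bin holds 604 of 1366 values above and 18 of 36 below.

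All 9 members gave a CT below 35 in all 4 samples. 6 of them passed the filter of the study, a lowest ΔCT below 10, and were tested with limma among 80 mouse miRNAs, 64 of them on card A. The 6 were miR-10a, miR-99a, miR-99b, miR-100, miR-125a-5p and miR-125b-5p. miR-10b, miR-125b-3p and miR-125a-3p did not pass, with a lowest ΔCT of 12.1, 13.0 and 14.1, and are given as values without a test.

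miR-125b-5p and miR-99a were higher in c-Myc depleted BASCs, by 2.14-fold and 1.81-fold. miR-99b and miR-100 lay higher in both depleted samples, by 1.57-fold and 1.59-fold, without passing the test. miR-10a and miR-125a-5p showed log2 changes of 0.00 and -0.13. Thus 2 of the 6 tested members had an adjusted p below 0.05, both higher, against 32.5% of all 80 tested miRNAs in either direction and 25% higher. On card A alone 31.2% of the tested miRNAs were called higher. The family's share was therefore close to the background. 1 member, miR-125b-5p, passed the criteria of the study (fold above 2 and unadjusted p below 0.05), which 20% of the tested miRNAs passed. Both depleted samples lay above both controls for 4 of the 6 members and for 40% of all tested miRNAs, and the groups did not overlap in either direction for 67.5%. The median log2 change was 0.66 over the 6 members, 0.23 over the 64 tested miRNAs of card A and 0.05 over all 80.

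**Figure D2:**
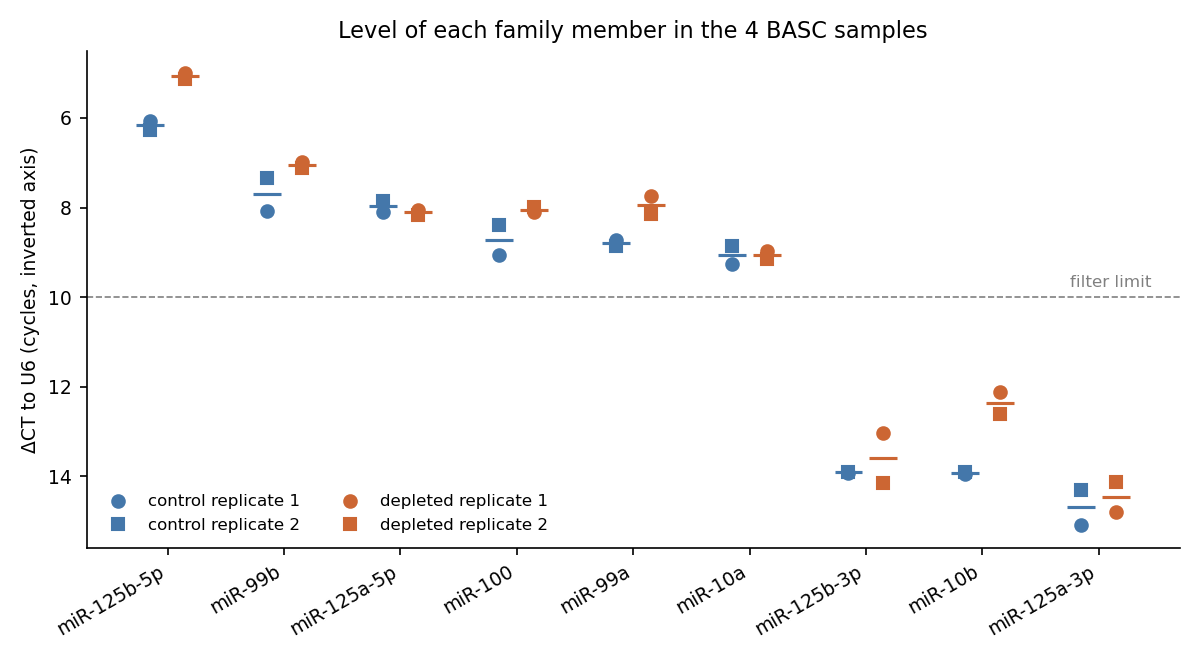
ΔCT to U6 in cycles (vertical axis, inverted so that higher levels lie higher) for each family member (horizontal axis, ordered by the control mean) in 2 control samples (blue) and 2 c-Myc depleted samples (orange), with a short line at each group mean and the filter limit of 10 dashed. miR-125b-5p, miR-99a, miR-99b, miR-100 and miR-10b have both depleted samples above both controls.

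miR-125b-5p was the most abundant member. Its ΔCT was 6.07 and 6.27 in control cells against 5.01 and 5.13 in depleted cells. Both depleted samples lay about 1 cycle below both controls, and the replicates of each group lay within 0.2 cycles. The log2 change was 1.10 (SE 0.14, limma adjusted p = 0.0138). In copies per cell by the formula of the study, the level went from 1266 ± 250 (SD, n = 2) to 2967 ± 151 (SD, n = 2), and its place among all mouse assays from 10 to 5. Here and below, copies come from the CT without subtraction of U6, so their ratios differ from the folds of the log2 change. The exact two-sided permutation test of 2 against 2 samples cannot go below p = 0.333, the value it gave here and for every member whose groups did not overlap. Both depleted CT values of this assay, 23.9 and 24.0, are among 24 CT values in the table written with over 6 decimals, against at most 6 in the other 1342. After subtraction of U6 they give 5.00729 and 5.13366, with fewer decimals than any other depleted value of the family (for example 8.97121325 for miR-10a). Whether they are direct readings like the rest cannot be told from the sources used here.

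miR-125a-5p, its paralog with the same seed, had a ΔCT of 8.09 and 7.86 in control cells against 8.05 and 8.16 in depleted cells. The groups overlapped. The log2 change was -0.13 (SE 0.15, limma adjusted p = 0.554), and the level 360 ± 3.23 copies per cell in the controls and 365 ± 15.4 in the depleted samples (SD, n = 2). Its 4 CT values lay between 26.9 and 27.0.

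miR-99a had a ΔCT of 8.73 and 8.85 in control cells against 7.74 and 8.14 in depleted cells. The depleted samples lay lower in ΔCT, hence higher in level, and the groups did not overlap. The log2 change was 0.86 (SE 0.19, limma adjusted p = 0.0434), and copies per cell went from 206 ± 33.0 to 414 ± 75.2 (SD, n = 2).

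miR-100, which differs from miR-99a by 1 base, had a ΔCT of 9.07 and 8.38 in control cells against 8.11 and 7.998 in depleted cells. The groups did not overlap, but the controls differed from each other by more than control 2 did from the depleted samples. The change was 0.67 on the log2 scale (SE 0.28, limma adjusted p = 0.187), and copies per cell went from 218 ± 50.2 to 380 ± 24.4 (SD, n = 2).

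miR-99b had the same shape, with a ΔCT of 8.07 and 7.35 in control cells against 6.99 and 7.12 in depleted cells. Control 1 was again the sample farthest from the rest. This came to a log2 change of 0.65 (SE 0.30, limma adjusted p = 0.210), and copies per cell went from 441 ± 109 to 754 ± 40.7 (SD, n = 2). Without control 2, the log2 change of miR-99b and of miR-100 was 1.01 each. Without control 1 it was 0.29 for miR-99b and 0.33 for miR-100.

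miR-10a had a ΔCT of 9.26 and 8.86 in control cells against 8.97 and 9.14 in depleted cells. The depleted values lay between those of the controls. Its log2 change was 0.00 (SE 0.20, limma adjusted p = 0.996), at 172 ± 16.0 and 190 ± 13.5 copies per cell (SD, n = 2).

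miR-10b was a rare member with a wide difference between groups. Its CT was 32.8 and 33.0 in control cells against 31.0 and 31.4 in depleted cells, and its ΔCT 13.95 and 13.90 against 12.11 and 12.61. Both depleted samples lay above both controls in level. The log2 change was 1.56, or 2.96-fold after subtraction of U6. Copies per cell, from the CT alone, went from 5.98 ± 0.482 to 19.7 ± 4.58 (SD, n = 2). miR-10b lay outside the filter. With the 263 mouse miRNAs detected in any sample (CT below 35) fitted without the filter, the limma adjusted p was 0.0997. With CT values held at a ceiling of 32 in place of 35 the change was 0.64, since both controls then lay at the ceiling.

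The opposite arms of the miR-125 hairpins were near the limit of detection. miR-125a-3p had CT values of 34.0 and 33.4 in control cells against 33.6 and 33.0 in depleted cells. miR-125b-3p had 32.8 and 33.0 in control cells against 31.9 and 33.0 in depleted cells. Neither pair of groups was separate on the ΔCT scale, and the log2 changes were 0.24 and 0.33.

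**Figure D3:**
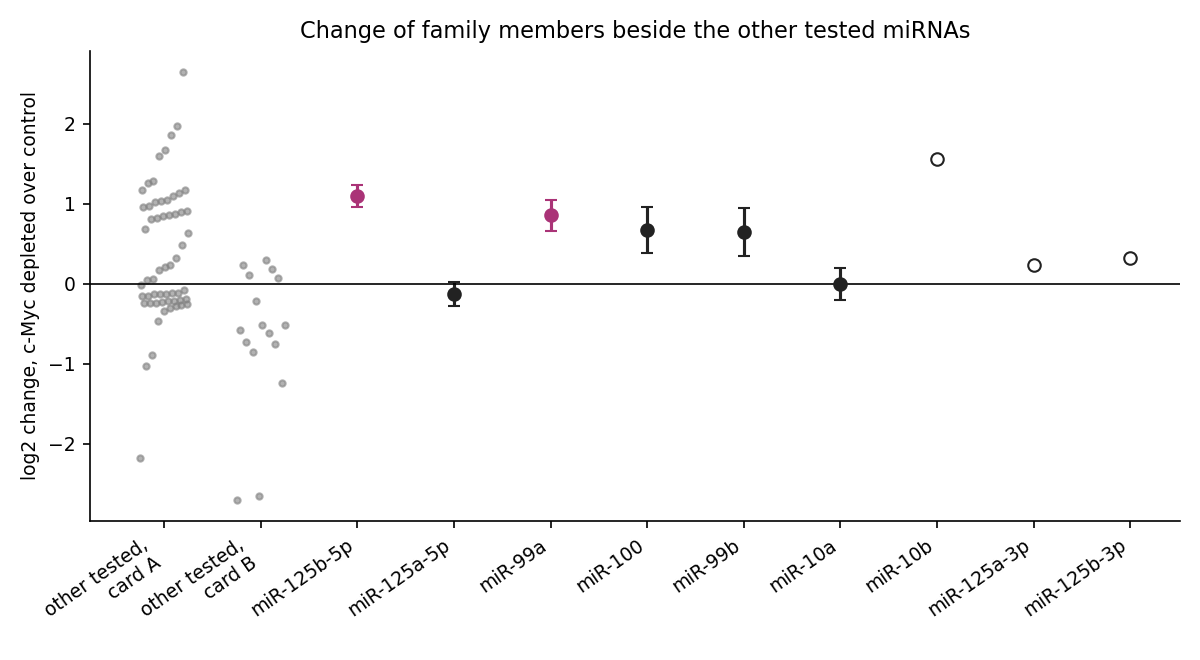
Log2 change, c-Myc depleted over control (vertical axis), of the other tested miRNAs of cards A and B (grey points) and of the 9 family members. Filled points with bars are the 6 tested members with 1 SE from limma, purple where the adjusted p was below 0.05 (miR-125b-5p and miR-99a), and open points are the 3 members outside the filter.

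In copies per cell the order of the members in the controls was miR-125b-5p, miR-99b, miR-125a-5p, miR-100, miR-99a, miR-10a, miR-125b-3p, miR-10b and miR-125a-3p. The neighbours miR-100 and miR-99a overlapped between samples, and so did miR-125b-3p and miR-10b. In the depleted cells miR-99a, miR-100 and miR-125a-5p held the middle places, with overlap between each and the next, and miR-10b lay above both opposite arms. miR-125b-5p lay above miR-99b, the next member, by 1.54 cycles in the controls and by 1.99 cycles in the depleted samples. These levels compare different assays, whose efficiencies were not measured.

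The ratio of 2 members on one card does not depend on U6. 14 pairs with a shared seed or neighbouring genes were compared, 11 of them with a test and 3 as values. miR-125b-5p over miR-125a-5p was the 1 pair past an adjusted p of 0.05. As log2 ratios, miR-125b-5p exceeded miR-125a-5p by 2.02 and 1.60 in the controls and by 3.05 and 3.03 in the depleted samples. The depleted samples lay close together and above both controls. The difference was 1.23 (SE 0.19, limma adjusted p = 0.0145 over all miRNAs of the fit, 0.0443 over the pairs). Without depleted sample 1 or depleted sample 2 the difference was 1.22 or 1.24, and the limma adjusted p 0.115 or 0.0963. Thus the paralogs with the seed CCCUGAG, alike in their first 13 bases, differed in their change by this test. The fit held 79 miRNAs, each set against miR-125a-5p, and how many of them also passed is not given here. With U6, 32.5% of the tested miRNAs were called. The difference is therefore not shown to be particular to the paralogs.

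Within the compact cluster at Spaca6, miR-99b over miR-125a-5p was 0.02 and 0.52 in control cells against 1.06 and 1.04 in depleted cells. The groups did not overlap, with a difference of 0.78 (SE 0.21, limma adjusted p = 0.0585). It passed the threshold without a ceiling on CT (limma adjusted p = 0.0295), where the difference stayed at 0.78 and only other miRNAs of the fit changed. The difference was 1.03 without control 2 and 0.53 without control 1. let-7e, which lies between them, had a log2 change of 0.17 (SE 0.28, limma adjusted p = 0.651). miR-99b over let-7e differed by 0.48 (SE 0.20, limma adjusted p = 0.155) and miR-125a-5p over let-7e by -0.30 (SE 0.24, limma adjusted p = 0.376), with no overlap between groups in either.

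In the cluster of miR-99a and miR-125b-2, the ratio of miR-99a to miR-125b-5p was -2.66 and -2.59 in control cells against -2.73 and -3.00 in depleted cells on the log2 scale. The difference was -0.24 (SE 0.25, limma adjusted p = 0.488). let-7c had a log2 change of -0.19 (SE 0.32, limma adjusted p = 0.651). Over let-7c, miR-99a was higher after depletion by 1.05 (SE 0.37, limma adjusted p = 0.0764) and miR-125b-5p by 1.29 (SE 0.39, limma adjusted p = 0.0537). The groups were separate in both ratios, and neither passed the threshold. Without a ceiling on CT both did, with a limma adjusted p of 0.0269 for miR-99a and 0.00758 for miR-125b-5p, and with a ceiling of 32 the values were 0.0356 and 0.0175. Every CT of these miRNAs lay below 32, so the differences stayed the same. Only other miRNAs of the fit, and with them the spread and the adjustment, changed.

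In the Mir100hg cluster, miR-100 over miR-125b-5p differed by -0.43 (SE 0.37, limma adjusted p = 0.396), with overlap. It was -0.87 without control 1 (limma adjusted p = 0.0170) and 0.016 without control 2. let-7a lay outside the filter, with a ΔCT of 12.07 and 11.53 in control cells against 10.26 and 11.15 in depleted cells and a log2 change of 1.10. As values only, miR-100 over let-7a differed by -0.42 and miR-125b-5p over let-7a by 0.00.

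Among the members with the seed ACCCGUA, the differences were 0.21 (SE 0.36) for miR-99a over miR-99b, 0.02 (SE 0.23) for miR-100 over miR-99b and 0.18 (SE 0.39) for miR-99a over miR-100. The limma adjusted p was 0.639, 0.940 and 0.681, and the groups overlapped in all 3 ratios. The other seed pair, miR-10b over miR-10a, was -4.69 and -5.05 in control cells against -3.14 and -3.47 in depleted cells on the log2 scale, a difference of 1.56 without a test.

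**Figure D4:**
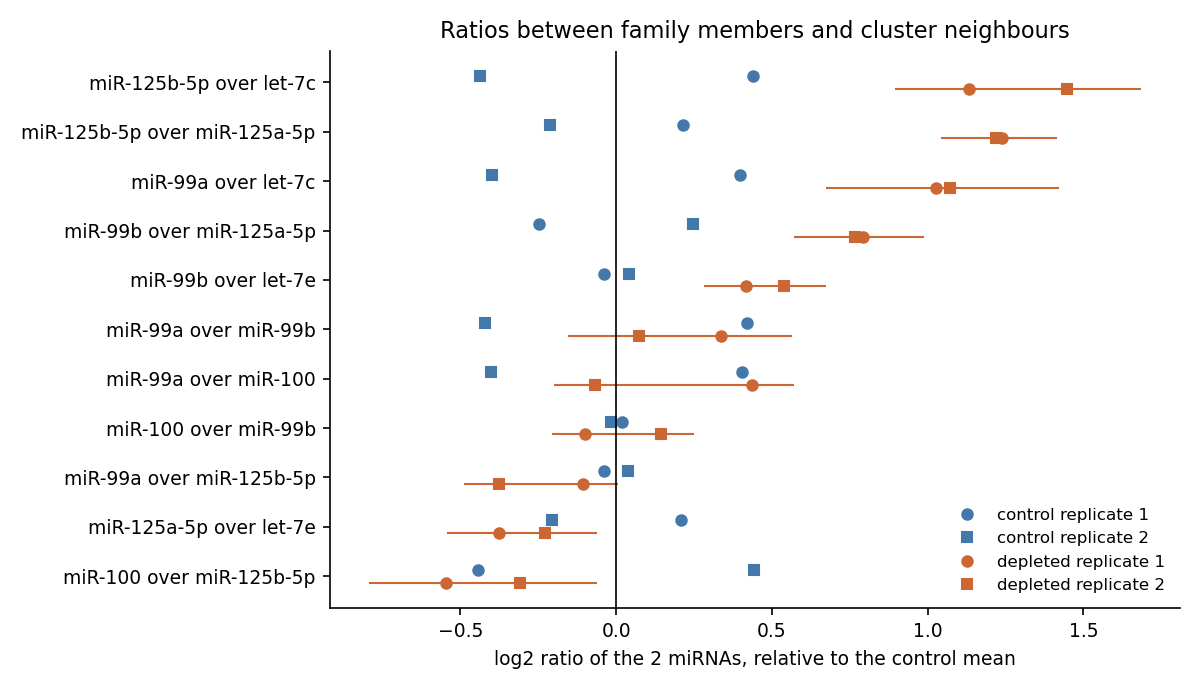
Log2 ratio of the 2 miRNAs of each tested pair relative to its control mean (horizontal axis) for 11 pairs (vertical axis), in 2 control samples (blue) and 2 c-Myc depleted samples (orange), with a line of 1 SE from limma around the depleted mean. miR-125b-5p over miR-125a-5p, at 1.23, is the pair that passed an adjusted p of 0.05.

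The changes of the 4 highest tested members became smaller under references other than U6 of the same card. All references but quantile normalization subtract 1 value per sample from the whole of card A, and so shift the 6 members alike. Their order and their place against the card A median could therefore change only with quantile normalization, which kept both. Under the 6 normalizations compared (U6 of the same card, U6 of both cards, snoRNA135 with snoRNA202, quantile normalization, the median of each sample, the median of each sample and card), the log2 change of miR-125b-5p ranged from 0.56 to 1.10 and that of miR-99a from 0.32 to 0.86. miR-100 ranged from 0.14 to 0.67 and miR-99b from 0.12 to 0.65. miR-10a ranged from -0.53 to 0.00 and miR-125a-5p from -0.66 to -0.13. The first 4 lay above the median of card A under all 6, and miR-10a and miR-125a-5p below it. On card A the control CT minus the depleted CT was 1.07 cycles for snoRNA135, -0.17 for snoRNA202 and 0.15 for U6. The snoRNAs thus differed from each other by more than either range above is wide for most members, and neither was used alone. The median of all 80 miRNAs moved from 0.05 with U6 to between -0.25 and 0.00 with the others. With U6 of both cards 1 member was called, and with the other 4 references none of the 6 was. Calls fell among all 80 tested miRNAs as well, from 26 with U6 of the same card to 14 with U6 of both cards, 18 with the snoRNAs, 4 with quantile normalization, 6 with the median of each sample and 5 with the median of each sample and card. With U6 of the same card, miR-125b-5p had place 12 by change of the 64 tested miRNAs of card A, followed by miR-99a at 22, miR-100 at 27 and miR-99b at 28, then miR-10a at 37 and miR-125a-5p at 44.

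**Figure D5:**
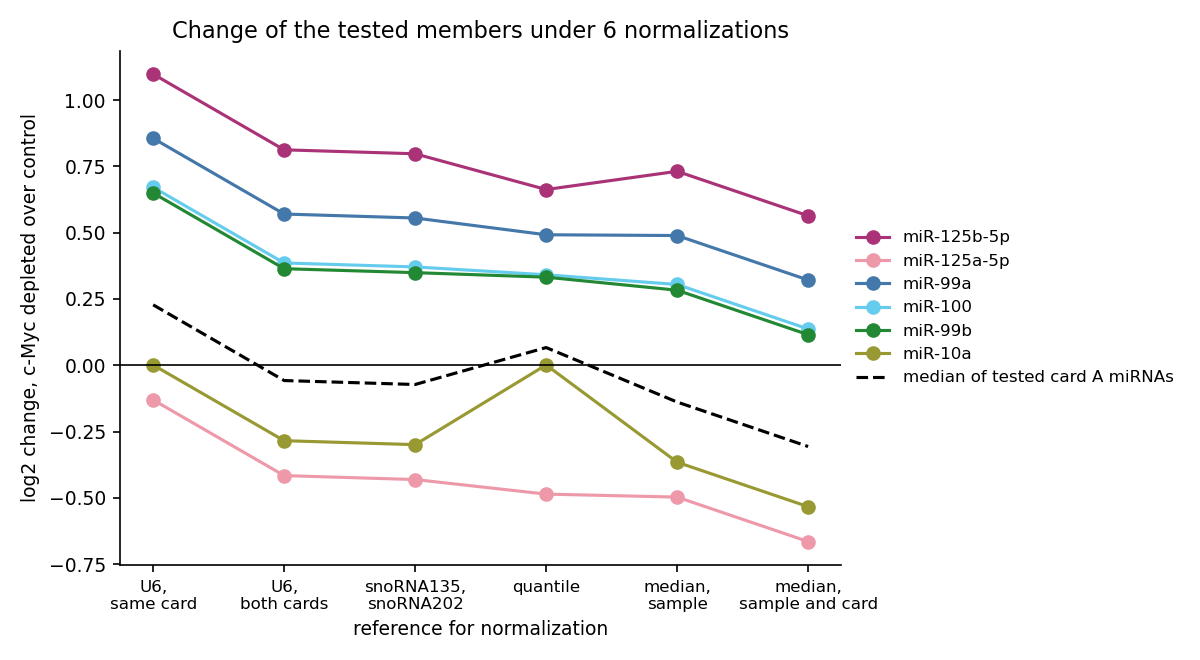
Log2 change, c-Myc depleted over control (vertical axis), of the 6 tested members under 6 normalizations (horizontal axis), with the median of the 64 tested card A miRNAs dashed. miR-125b-5p goes from 1.10 with U6 of the same card to 0.56 with the median of each sample and card. The 4 highest members stay above the dashed line, which all references but quantile normalization shift together with the members.

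Leaving out single samples changed the calls, in fits where the lone sample of a group is assumed to vary like the other group. The calls of miR-99a and miR-125b-5p did not hold in all of these fits. How many of all tested miRNAs were called in them is not given here, so this cannot be read as particular to the members. The log2 change of miR-99a lay between 0.66 and 1.05, and that of miR-125b-5p between 0.999 (without control 2) and 1.20.

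The star strands of the family's hairpins lay on card B, near or under detection. miR-10a* gave no CT in any well, and miR-10b* gave 1 CT, of 32.6 in depleted sample 2. miR-125b* had a CT in 7 of 8 readings. miR-99b* had CT values of 31.9 and 33.0 in control cells against 31.96 and 32.9 in depleted cells, a change of 0.04 before and -0.68 after subtraction of the U6 of card B, which moved by 0.72 cycles. The groups overlapped in CT. Of the rat assays, rno-miR-125b* gave no CT, and rno-miR-99a* gave 35.5 and 34.0 in the controls and 33.1 in depleted sample 1 alone.

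miR-196b, another miRNA of the Hox clusters, was rare like miR-10b and differed in the same direction, with CT values of 32.9 and 33.0 in control cells against 31.4 and 31.97 in depleted cells. Its log2 change was 1.07, outside the filter and without a test. miR-615-3p and miR-615-5p, also of a Hox cluster, gave no CT.

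The miRNAs whose centred profile lay closest to a member's were sought among 72 tested miRNAs, over 4 samples. For miR-125b-5p they were miR-214 and miR-17, at a root mean square distance of 0.0554 and 0.0874 cycles. For miR-99a they were miR-365 (0.0483) and miR-30c (0.0527). For both miR-99b and miR-100 they were miR-199a-3p and let-7i, at 0.131 and 0.156 cycles from miR-99b and at 0.159 and 0.158 from miR-100. miR-155 (0.0164) and miR-331-3p (0.0173) lay closest to miR-125a-5p, and miR-93 (0.0542) and miR-28 (0.0646) to miR-10a. With 4 samples and CT values near whole cycles, such distances describe these samples only.

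Markers of other cell types were read on the same cards. Of 6 miRNAs typical of fibroblasts and mesenchyme, 5 were detected in all samples, with a summed level of 3.53% and 4.07% of U6 in control cells against 5.20% and 4.998% in depleted cells, and all 6 were tested. miR-214 (log2 change 1.02) and miR-152 (0.86) were called higher, 2 of 6, against 25% of all tested miRNAs. miR-199a-3p had 0.82, miR-143 0.04 and miR-145 -0.13, without passing the test. miR-199a-5p had -0.90 (SE 2.97) and did not pass either. Its CT was at the ceiling of 35 in control 2 and depleted sample 1, so this value carries little precision. The summed level was higher in the samples where miR-125b-5p and miR-99a were higher, and its part in their change was not tested. Of 10 epithelial miRNAs only miR-200c was detected in all samples, at CT 33.0 and 34.0 in control cells against 34.0 and 33.4 in depleted cells. miR-203, miR-205 and miR-449b were not detected, and the epithelial sum was 0.0449% and 0.0170% of U6 in control cells against 0.0160% and 0.00419% in depleted cells. The endothelial pair summed to 0.108% and 0.122% in control cells against 0.0283% and 0.0252% in depleted cells. The miRNAs of this epithelial list were thus at or near the detection limit in cells labelled as BASCs. miR-182, which is outside the list, is also found in epithelia and was looked up after its value was known, passed the filter with a log2 change of -0.21. The study stained its cultures for the proteins SP-C and CCA, which the cards do not measure. In such bulk samples fewer cells of a type and less RNA per cell cannot be told apart.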

How the data were processed

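MiRNA was reverse transcribed with Megaplex primer pools and measured on TaqMan low density arrays in 4 samples, 2 control and 2 c-Myc depleted, grouped by the labels. The authors deposited 1 table of threshold cycles (CT, in PCR cycles, with no normalization), for which the submitters' processing notes name Partek 6.4. The members and lists were chosen with earlier results of these data known.

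A ceiling of 35 was given to every well above it or without a CT, repeat wells of an assay were averaged, and the mean U6 CT of the same card was subtracted (ΔCT). Mouse miRNAs with a lowest ΔCT below 10 were tested with limma 3.58.1 (lmFit, eBayes) in R 4.3.3, two-sided, with the sign of ΔCT turned and Benjamini-Hochberg adjustment over all of them. For pairs, the ΔCT of the second miRNA was subtracted from all others before the same fit. The study's formula gave the copies per cell, with 40 - CT divided by 3.34 as the exponent of 10 and the result divided by 22. Tables and figures were made with Python 3.11.15, pandas 2.3.3 and matplotlib 3.10.9. On simulated ΔCT of 400 miRNAs in 20 runs, the comparison recovered 73.2% of changes of 1 and 91.8% of changes of 2 on the log2 scale, with 2.94% of calls false. In this simulation as many miRNAs changed as did not, and the noise was normal and independent for each value. No error was shared within a sample or through the reference, so the 2.94% does not cover the choice of reference. The number of arrays, 2 per group, limits the precision.

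Named miRNAs were the members, the let-7 miRNAs of their clusters, star strands and rat assays of the family, other Hox cluster miRNAs, the 2 nearest profiles of each tested member, and marker lists for epithelium, fibroblasts or mesenchyme, endothelium, blood, muscle and neural cells. Blood markers summed to 0.776% and 0.881% of U6 in control cells against 0.758% and 0.737% in depleted cells. Most of this sum came from miR-155, at CT 25.96 and 25.94 in control cells against 25.91 and 25.95 in depleted cells. The other blood markers on the cards lay at CT 32.0 or higher in every sample. The muscle and neural sums were at most 0.0275% and 0.00742% in any sample. Alternatives were other references, ceilings and filters, one-way ANOVA, a replicate block, a trend of the variance, the omission of each sample, and copies with equal U6. A crossed pairing was added after seeing the data.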

Additional observations from a re-analysis of the deposited data

How the results depend on the processing

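The number of members with an adjusted p below 0.05 was 2, and it was 0 with the median of each sample, the median of each sample and card, snoRNA135 with snoRNA202 or quantile normalization, 1 with U6 of both cards, 0 without the ΔCT filter (more miRNAs are then adjusted for), 0 with one-way ANOVA, and 0 to 3 with a sample left out. Over all 80 miRNAs the calls went from 26 to 6, 5, 18, 4 and 14 under these 5 references in the order given. The number of members stayed at 2 without a ceiling, with a ceiling of 32, with the other ΔCT filters and with a variance trend. The number past the study criteria was 1. It was 0 with each of the 5 other references and 2 without the filter (miR-10b then enters), and it changed in some fits with a sample left out. The share of all tested miRNAs past these criteria is not given for these settings.

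The deviations of control 1 and depleted 1 from their group means correlated at -0.44 over 80 miRNAs, so the replicate numbers were not taken as pairs. With the replicate block 0 members were called (adjusted p 0.0686 for miR-125b-5p and 0.0967 for miR-99a), and with the crossed pairing 2.

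The log2 change of miR-10a, 0.00 with U6, was -0.37 with the median of each sample, -0.53 with the median of each sample and card, -0.30 with the snoRNAs, -0.28 with U6 of both cards, and -0.20 to 0.20 with a sample left out. The difference of miR-125b-5p and miR-125a-5p was 1.23 without the filter (adjusted p 0.0683) and 1.02 to 1.44 with a sample left out, with the adjusted p above the threshold without either depleted sample. With a sample left out, the difference ranged from -0.21 to 0.63 for miR-99a over miR-99b, from -0.10 to 0.14 for miR-100 over miR-99b, from -0.22 to 0.59 for miR-99a over miR-100 and from -0.87 to 0.016 for miR-100 over miR-125b-5p, which passed the threshold at its lower end (adjusted p 0.0170). The causes were not tested. Copies with equal U6 moved 16 of 18 values by less than their SD. The other 2 were those of miR-125a-5p, at 381 in the controls and 347 in the depleted samples, against 360 and 365 from the CT alone. A CT near 35 carries little precision, which limits miR-10b, miR-125a-3p, miR-125b-3p and the star strands.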
